A study of Homo sapiens with 6 samples.

Results

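The ENTPD genes encode nucleoside triphosphate diphosphohydrolases. The 8 of them, ENTPD1 to ENTPD8, were taken by gene symbol from the 57232 genes measured by RNA sequencing. The RNA came from IMR90 cells, which are human fetal lung fibroblasts. The cells had been infected with a vector carrying ARID1B cDNA (3 libraries) or with the empty vector (3 libraries). ARID1B is a subunit of the SWI/SNF chromatin remodeling complex. The study asked which of its target genes act in senescence, and ENTPD7 was among the genes it followed up. Both groups were at passage 13, were selected with puromycin and were collected on day 6 after infection, so that cells under the empty vector had gone through the same infection and selection. The model is 1 cell line with a cDNA carried by a vector, and the libraries are described as biological replicates, without a record of how the cultures were kept apart. Values are FPKM, in which fragments are divided by gene length and by library size.

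ENTPD enzymes cleave the terminal phosphates of nucleoside triphosphates and diphosphates and release monophosphates in the end. ENTPD1 (CD39), ENTPD2, ENTPD3 and ENTPD8 sit in the plasma membrane with the active site facing out, where they remove extracellular ATP and ADP and so shape signaling through P2 receptors and, after CD73 has produced adenosine, through adenosine receptors. ENTPD4, ENTPD5, ENTPD6 and ENTPD7 work in the Golgi apparatus, the endoplasmic reticulum and vesicles. ENTPD4, ENTPD5 and ENTPD6 hydrolyze UDP or GDP left by glycosyltransferases, which keeps nucleotide sugars flowing in, while ENTPD7 hydrolyzes nucleoside triphosphates.

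Promoter sequences are shown for ENTPD7, the intracellular member with the largest difference between the groups, and for ENTPD3, the surface member with the largest ratio. They are RefSeq windows (GRCh38.p14, plus strand for both genes) of 250 bases before to 50 after the start, at chr10:99659259-99659558 for ENTPD7, which has a further start in RefSeq, and chr3:40386934-40387233 for ENTPD3. Capitals mark CCAAT (or ATTGG on the other strand) and GGGCGG (or CCGCCC), the boxes read by NF-Y and by Sp family factors; adjoining matches run together.

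ENTPD7: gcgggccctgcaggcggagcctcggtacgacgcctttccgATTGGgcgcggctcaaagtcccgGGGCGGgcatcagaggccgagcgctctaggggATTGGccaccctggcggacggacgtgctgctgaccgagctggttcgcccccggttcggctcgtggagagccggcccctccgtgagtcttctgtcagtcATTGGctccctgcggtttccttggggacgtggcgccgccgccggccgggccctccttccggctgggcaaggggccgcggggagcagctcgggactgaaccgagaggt

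ENTPD3: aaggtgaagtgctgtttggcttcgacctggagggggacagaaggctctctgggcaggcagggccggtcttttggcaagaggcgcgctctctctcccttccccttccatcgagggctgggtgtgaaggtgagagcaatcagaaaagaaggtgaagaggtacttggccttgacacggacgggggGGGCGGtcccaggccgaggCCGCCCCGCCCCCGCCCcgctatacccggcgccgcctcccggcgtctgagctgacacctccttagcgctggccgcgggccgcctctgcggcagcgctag

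The ENTPD7 window held 3 CCAAT boxes and 1 GGGCGG box, and the ENTPD3 window held 0 and 4. A window at the further ENTPD7 start (chr10:99659379-99659678), not printed here, overlaps the printed one. It held 1 CCAAT box, which is the last box marked in the printed window, and 0 GGGCGG boxes. Of all 35116 RefSeq promoter windows of the same length outside chromosome 8, 34.6% held at least 1 CCAAT box and 3.26% at least 3. At least 1 GGGCGG box was in 45.0% of them, and at least 3 were in 15.8%. Neither printed window held the AP-1 motif TGANTCA (in 7.71% of all windows), the E-box CACGTG (7.26%) or the TATA box as TATAAA (11.5%). Each motif was searched on both strands, and matches are letters in a window, not sites.

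Before the ENTPD values, the libraries were examined. ARID1B was at 32.5, 21.0 and 28.3 FPKM with ARID1B cDNA and at 2.29, 1.31 and 2.05 FPKM with the vector (replicates 1, 2 and 3), so each library fitted its label. Library totals, worked out from the step size of low FPKM values, lay between 63386813 and 91924514 reads. All 10 lung fibroblast markers were present, whereas the blood and endothelial markers summed to no more than 0.0762 and 0.454 FPKM in any library, with KRT5, SFTPC, CDH5 and CD3E at 0. The epithelial markers summed to 4.17 to 6.39 FPKM with ARID1B and 4.79 to 15.8 FPKM with the vector, and the smooth muscle markers to 33.7 to 36.3 and 29.7 to 37.0 FPKM. Vector replicate 2 stood apart on the first principal component (a score of -48.5, against -3.63 to 20.0 for the other libraries), and Spearman's rho between log2 change and GC content across 10195 genes was -0.55, or -0.27 without that library, which describes genes that share libraries and is no test. In addition, replicate 3 of each group lay close to a mixture of replicates 1 and 2, with 76.8% of replicate 1 for ARID1B and 83.2% for the vector. The SDs, n = 3 and all p-values below treat the 3 libraries of a group as independent, which was not tested. The changes of the tested ENTPD genes are also given without vector replicate 2 and without both libraries numbered 3, and those of partner genes where vector replicate 2 moves them.

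The 8 genes divided by location. The 4 intracellular members made up nearly all of the family's RNA, and the 4 surface members together came to 0.303, 0.120 and 0.228 FPKM with ARID1B and to 0.0559, 0.0379 and 0.0436 FPKM with the vector. That was 0.934%, 0.449% and 0.729% of the family sum with ARID1B and 0.239%, 0.162% and 0.189% with the vector. The shares of the groups did not overlap (two-sided exact permutation test, p = 0.1, which is the lowest value possible with 3 libraries a group), and ENTPD3 supplied the difference among the surface members.

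With ARID1B, mean levels were 14.2 FPKM for ENTPD4, 7.34 for ENTPD6, 5.13 for ENTPD7, 3.18 for ENTPD5 and 0.190 for ENTPD3. With the vector, they were 10.1 for ENTPD4, 7.72 for ENTPD6, 3.08 for ENTPD7, 2.31 for ENTPD5 and 0.0140 for ENTPD3. The ranges of ENTPD6 and ENTPD7 overlapped with ARID1B, and those of ENTPD4 and ENTPD6 and of ENTPD7 and ENTPD5 overlapped with the vector, so those neighbors in the order are not set apart. The order also depends on the gene length behind FPKM, which was 3.06 times the longest GENCODE transcript for ENTPD6, 1.89 times for ENTPD5, 1.67 times for ENTPD4 and 1.15 times for ENTPD7. As reads per kilobase of the longest transcript, scaled to the library total (RPKM on that length), a scale chosen after the data had been seen, ENTPD4 and ENTPD6 overlapped in both groups (means of 23.8 and 22.4 with ARID1B, 16.9 and 23.6 with the vector), and so did ENTPD5 and ENTPD7 (6.00 and 5.92 with ARID1B, 4.36 and 3.55 with the vector). On both scales the 4 intracellular members lay above every surface member in every library.

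**Figure D1:**
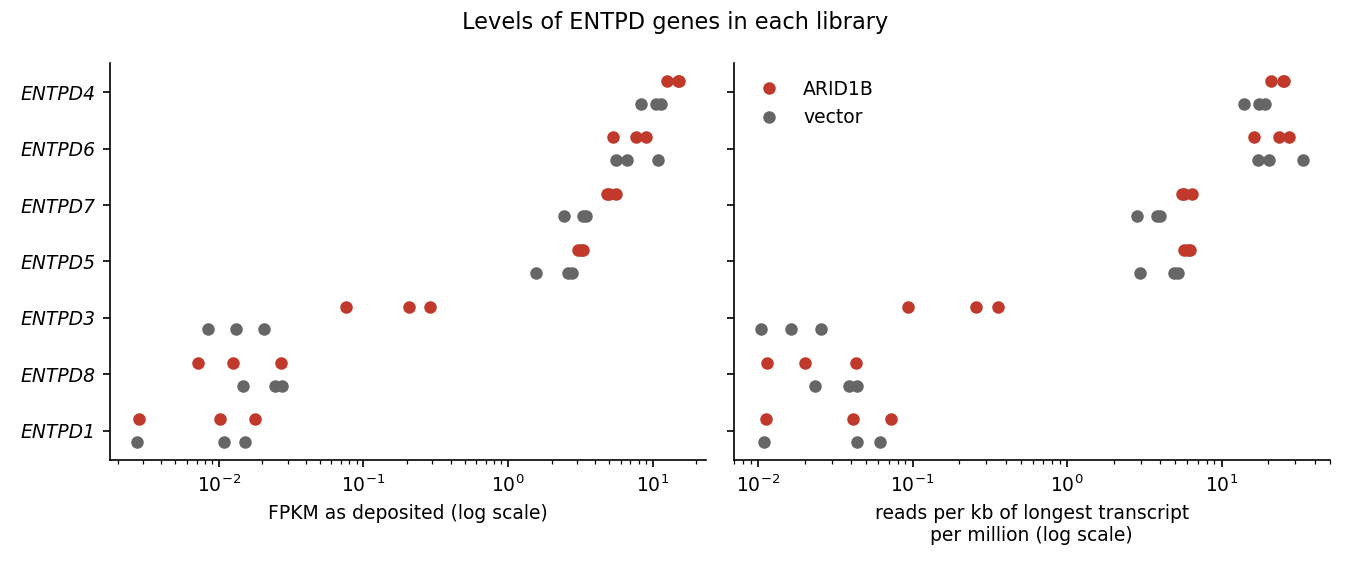
Levels of 7 ENTPD genes in each of the 6 libraries on log scales, as deposited FPKM (left) and as recovered reads per kilobase of the longest transcript, scaled to the library total (right), with ARID1B in red above the vector in gray; ENTPD2, at 0 in 5 libraries, is not drawn. ENTPD4, ENTPD5, ENTPD6 and ENTPD7 lie above 1 on both axes and the surface members lie below it, with ENTPD3 further right in the ARID1B libraries (0.0751 to 0.288 FPKM) than in the vector libraries (0.00836 to 0.0205 FPKM).

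ENTPD7, which hydrolyzes nucleoside triphosphates in intracellular vesicles and the Golgi, was the member with the clearest difference. ENTPD7 (ENSG00000198018) was at 4.82, 5.60 and 4.97 FPKM with ARID1B and at 3.48, 2.44 and 3.30 FPKM with the vector. Every ARID1B library lay above every vector library, and the lowest ARID1B value was 1.39 times the highest vector value. The ratio of the means was 1.67, or 1.51 without vector replicate 2 and 1.76 without both libraries numbered 3. On the log2(FPKM + 1) scale, which understates the change of low genes, the difference was 0.60 (standard error 0.135, 95% interval 0.27 to 0.92). It did not pass the threshold of 0.05 across the 10416 genes that averaged 1 FPKM or more (adjusted p = 0.301 from limma). Of these, 258 had a larger change and 127 a smaller p. The reads behind it numbered 1383, 1702 and 1872 with ARID1B and 1148, 907 and 858 with the vector, so that counting error was small beside the spread of the libraries. Without vector replicate 2 the difference was 0.48, at an adjusted p = 0.0511 from limma, without both libraries numbered 3 it was 0.66, and over 22 alternatives it ran from 0.48 to 0.81 with adjusted p from 0.0511 to 1.0. On the opposite strand, AL133353.2 and EBAG9P1 overlap ENTPD7 in GENCODE and were not examined. The neighboring gene CUTC overlaps ENTPD7 on the same strand in GENCODE. CUTC was at 3.35, 3.67 and 3.35 FPKM with ARID1B and 3.19, 5.88 and 3.73 FPKM with the vector, with overlapping groups. Whether reads were divided between ENTPD7 and CUTC was not tested, so the ENTPD7 level carries that uncertainty.

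ENTPD4, a Golgi and lysosomal enzyme with a preference for UDP, was the most abundant member by mean FPKM in both groups. ENTPD4 (ENSG00000197217) was at 15.2, 12.6 and 15.0 FPKM with ARID1B and at 11.5, 8.35 and 10.6 FPKM with the vector. The groups did not overlap, although the lowest ARID1B library exceeded the highest vector library by a factor of only 1.09. The log2 change was 0.46 (standard error 0.150, adjusted p = 0.390 from limma), or 0.34 without vector replicate 2 and 0.45 without both libraries numbered 3. ENTPD4 shares its strand and part of its locus with LOXL2, a lysyl oxidase that cross-links collagen. LOXL2 was at 74.8, 66.3 and 69.7 FPKM with ARID1B and at 56.8, 54.4 and 57.0 FPKM with the vector, again without overlap. Whether reads were divided between ENTPD4 and LOXL2 was not tested, so the ENTPD4 level is uncertain.

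ENTPD5 is the UDP and GDP hydrolase of the endoplasmic reticulum, where it clears the UDP produced when misfolded glycoproteins are reglucosylated. ENTPD5 (ENSG00000187097) was at 3.21, 3.04 and 3.29 FPKM with ARID1B and at 2.78, 1.56 and 2.59 FPKM with the vector. All ARID1B libraries lay above the vector libraries, by as little as 1.09 times, and the low value of vector replicate 2 set much of the distance. The log2 change was 0.35 (standard error 0.165, adjusted p = 0.510 from limma) and came to 0.18 without vector replicate 2 and 0.40 without both libraries numbered 3. COQ6, a ubiquinone synthesis gene, overlaps ENTPD5 on the opposite strand. COQ6 was at 1.19, 0.967 and 1.06 FPKM with ARID1B and at 0.949, 1.29 and 1.02 FPKM with the vector, with overlapping groups. BBOF1 and AC005480.2 overlap ENTPD5 on that strand too and were not examined.

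ENTPD6, a GDP-preferring enzyme of the Golgi that is also secreted, showed no common direction. ENTPD6 (ENSG00000197586) was at 8.99, 5.35 and 7.70 FPKM with ARID1B and at 5.58, 10.9 and 6.65 FPKM with the vector. The highest and the lowest library were both numbered 2 and came from opposite groups. The log2 change of -0.04 (95% interval -0.70 to 0.61, adjusted p = 0.963 from limma) turned to 0.21 without vector replicate 2, 0.14 without ARID1B replicate 2 and 0.14 after a correction for GC content and transcript length, and was -0.16 without both libraries numbered 3. ENTPD6 has the highest GC content of the 4 members, 59.1%, against 43% to 46% for ENTPD4, ENTPD5 and ENTPD7, and the part of GC content in its values was not tested beyond that correction.

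**Figure D2:**
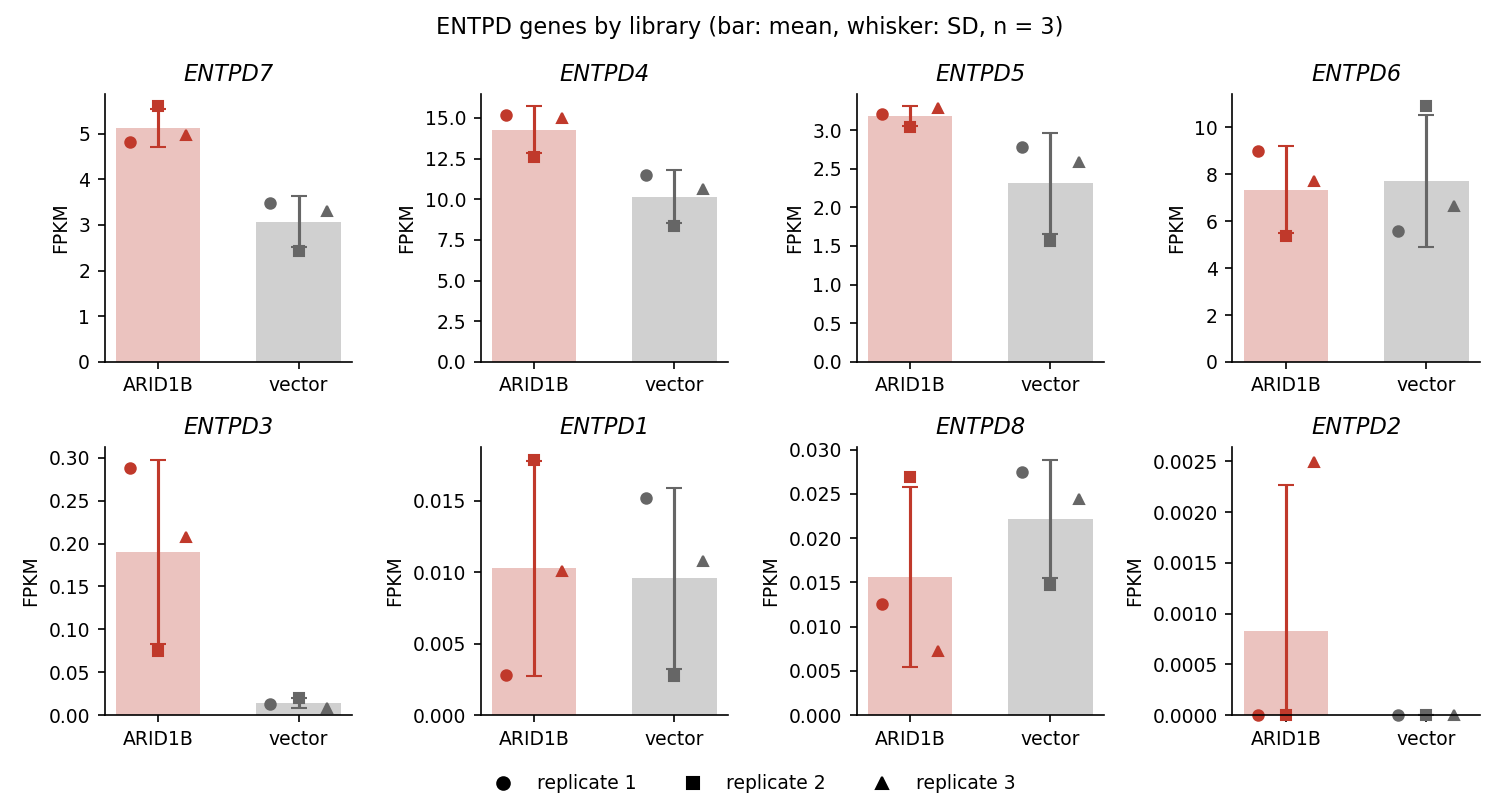
FPKM of the 8 ENTPD genes in each library, ARID1B in red at left and vector in gray at right of each panel, on linear axes that differ between panels. Bars are means and whiskers SDs (n = 3), with marker shapes for replicate numbers; ENTPD7, ENTPD4, ENTPD5 and ENTPD3 have every ARID1B library above every vector library, and the other 4 genes overlap.

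Of the 4 members tested, 0 passed the threshold of limma, against 0.0288% of all genes tested (3 of 10416, all higher). At an unadjusted p under 0.05, ENTPD7 and ENTPD4 were higher and 0 members lower, beside 4.64% of all genes higher and 5.94% lower, and voom on the recovered reads likewise called 0 members at its adjusted threshold. In 3 of 4 members the groups did not overlap with ARID1B higher, beside 9.44% of all genes tested; a further 11.1% of all genes had ARID1B lower without overlap. The median log2 change of the 4 members was 0.41, and that of all genes tested was -0.015. Without vector replicate 2 these medians were 0.27 and -0.009. The correction for GC content and transcript length also lowered the changes of the 3 higher members. It gave 0.53 for ENTPD7, 0.33 for ENTPD4, 0.20 for ENTPD5 and 0.14 for ENTPD6. The median over the 10195 genes of that fit was -0.021. Summed over the 8 genes, FPKM came to 32.5, 26.7 and 31.2 with ARID1B and 23.4, 23.3 and 23.2 with the vector. The groups of this sum did not overlap (exact permutation test, p = 0.1 two-sided). The sum depends on the gene length behind FPKM. Per kilobase of the longest transcript, ENTPD6 was at 16.3 in ARID1B replicate 2 and 33.5 in vector replicate 2. ENTPD4, ENTPD5 and ENTPD7 were higher in that ARID1B library. The lack of overlap is therefore given for the FPKM scale only. The 8 genes were not drawn at random and the libraries are few, so these counts describe the family only.

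Ratios between members within a library, which do not depend on the library total, were also compared. ENTPD7 relative to ENTPD4 was 0.318, 0.446 and 0.331 with ARID1B and 0.302, 0.293 and 0.313 with the vector. The groups did not overlap, but by a narrow margin, with ARID1B replicate 2 well above the rest (exact permutation test, p = 0.1 two-sided). ENTPD7 relative to ENTPD5 was 1.50, 1.84 and 1.51 with ARID1B and 1.25, 1.56 and 1.27 with the vector, and ENTPD4 relative to ENTPD5 averaged 4.47 ± 0.308 and 4.52 ± 0.713 (SD, n = 3 each). Both of these ratios overlapped between the groups.

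**Figure D3:**
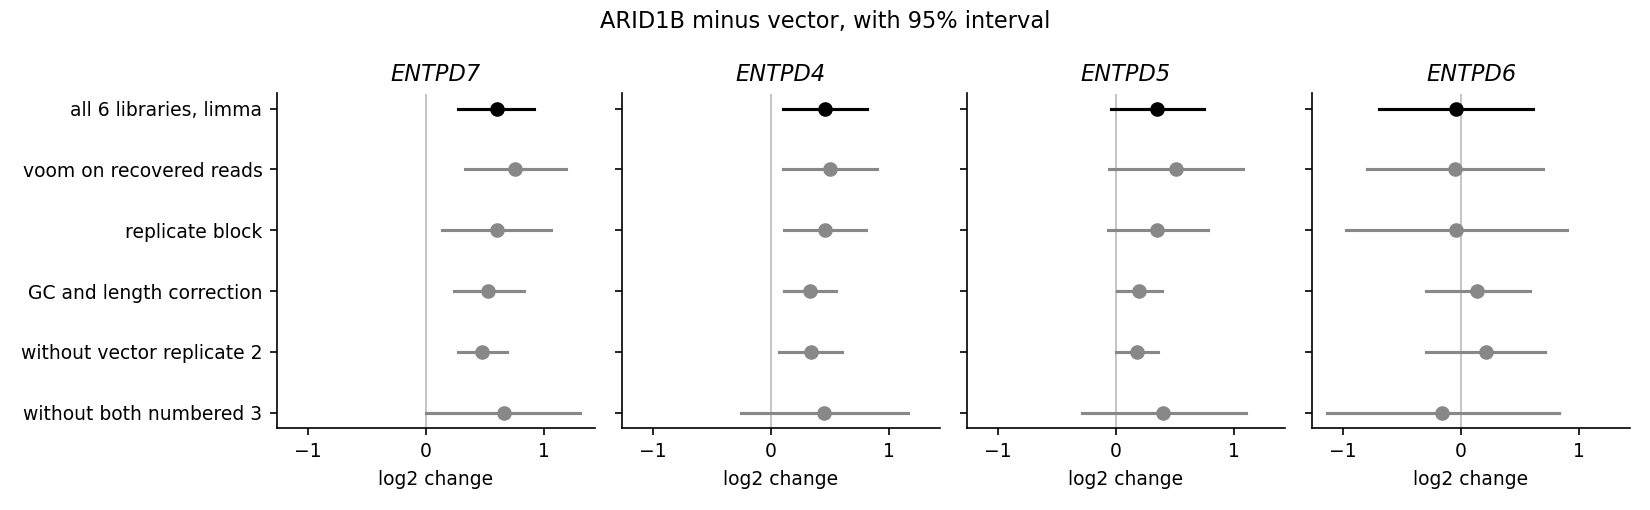
Log2 change (ARID1B minus vector) of the 4 tested members with its 95% interval under 6 analyses, the main limma fit in black and alternatives in gray; voom is on log2 reads scaled to the library total and the others on log2(FPKM + 1). ENTPD7 lies at 0.48 to 0.76 in all 6, and ENTPD6 lies on either side of 0.

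ENTPD3, a surface enzyme that hydrolyzes ATP in preference to ADP and is best known from neurons and pancreatic islets, had the largest ratio of the family at a very low level. ENTPD3 (ENSG00000168032) was at 0.288, 0.0751 and 0.208 FPKM with ARID1B and at 0.0132, 0.0205 and 0.00836 FPKM with the vector. These values correspond to 76, 21 and 72 reads with ARID1B and to 4, 7 and 2 reads with the vector. The exact 95% Poisson interval of the lowest ARID1B library ran from 13 to 32.1 reads and that of the highest vector library from 2.81 to 14.4 reads, for counting error only. The groups did not overlap, and the ratio of the means was 13.6, or 17.7 without vector replicate 2 and 10.8 without both libraries numbered 3. In this bulk RNA, more cells with ENTPD3 and more ENTPD3 per cell cannot be told apart.

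ENTPD3 was below the minimum of 1 FPKM and so had no main test, and with groups of 3 the exact permutation test gave p = 0.1 two-sided. Without the minimum its log2 change on the FPKM + 1 scale was 0.23 (adjusted p = 0.447 from limma). ENTPD3 averaged 0.102 FPKM over all 6 libraries and 0.0140 FPKM with the vector. It would pass a minimum of 0.05 FPKM through the ARID1B libraries alone, so its values stand as a description. The antisense gene ENTPD3-AS1 was at 0.459, 0.445 and 0.444 FPKM with ARID1B and 0.409, 0.522 and 0.350 FPKM with the vector, with overlapping groups. Libraries were made with a stranded kit, but whether strand was used in counting is not given in the sources used here.

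**Figure D4:**
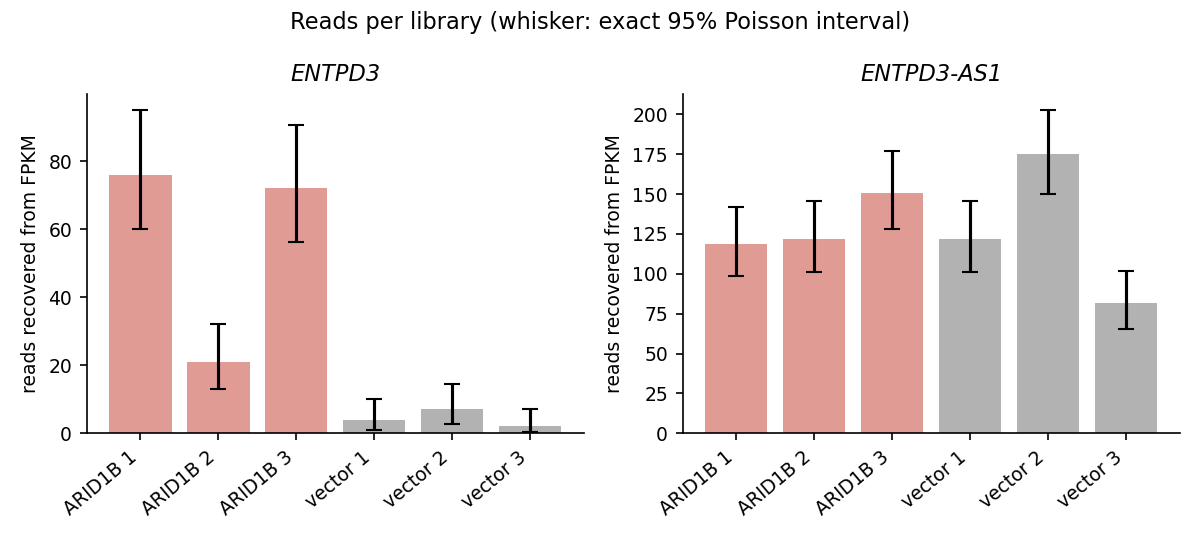
Reads of ENTPD3 (left) and of its antisense gene ENTPD3-AS1 (right) in each library, recovered from the FPKM steps, with ARID1B in red and the vector in gray; whiskers are exact 95% Poisson intervals and cover counting error only. ENTPD3 had 21 to 76 reads with ARID1B and 2 to 7 with the vector, while ENTPD3-AS1 had 119 to 151 and 82 to 175.

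The remaining surface members were close to the limit of detection. ENTPD1, the CD39 of lymphocytes and endothelium, had 4, 27 and 19 reads with ARID1B and 25, 5 and 14 reads with the vector, and ENTPD8, an enzyme of liver and intestine, had 4, 9 and 3 with ARID1B and 10, 6 and 7 with the vector. Both overlapped between the groups. ENTPD2, which prefers ATP, had 1 read in ARID1B replicate 3 and 0 reads in the other 5 libraries, where the level of 3 reads, taken as the floor for counting error only, was 0.00761 to 0.0109 FPKM. The antisense gene ENTPD1-AS1 was more abundant than ENTPD1 (0.192 to 0.242 FPKM with ARID1B and 0.170 to 0.220 FPKM with the vector).

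Genes whose profile over the 6 libraries lay closest to ENTPD7 were found by the root-mean-square difference of log2(FPKM + 1) centered on each gene's mean. They were SEL1L3 (0.0522), LACTB (0.0595), GRAMD3 (0.0667), SPARC (0.0684) and LIMA1 (0.0685), named for this likeness alone. SPARC, a matrix-associated glycoprotein, was at 454, 489 and 447 FPKM with ARID1B and 316, 281 and 313 FPKM with the vector. LIMA1, an actin-binding protein, was at 14.1, 16.4 and 14.8 FPKM with ARID1B and 12.2, 7.99 and 11.2 FPKM with the vector.

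Genes that act around the ENTPD enzymes were read from the same fit, and 0 of them passed the threshold in either direction, with all 6 libraries or without vector replicate 2. Of 13 other nucleotide-hydrolyzing and adenosine-converting enzymes, 7 were tested, with a median log2 change of 0.09. NT5E (CD73), which turns AMP into adenosine at the cell surface, was at 95.9, 49.0 and 89.7 FPKM with ARID1B and 35.4, 107 and 46.8 FPKM with the vector. NT5E was thus abundant in cells with hardly any ENTPD1. The lowest and the highest of its 6 values were both in vector libraries, the highest in vector replicate 2, and its log2 change was 0.41, or 0.86 without that library (adjusted p = 0.765 and 0.180 from limma). CANT1, a Golgi nucleotidase acting on UDP, had a log2 change of -0.09, and ENPP1, which splits ATP into AMP and pyrophosphate, one of -0.22, and without vector replicate 2 CANT1 had 0.05 and ENPP1 -0.31. DPP4, a surface peptidase that anchors adenosine deaminase, had 1.11 (adjusted p = 0.532 from limma), or 0.46 without vector replicate 2, at 21.8, 31.8 and 25.7 FPKM with ARID1B and 20.0, 4.04 and 17.6 FPKM with the vector. Below the minimum, ENPP4, named after its values were seen, was at 0.513, 0.218 and 0.629 FPKM with ARID1B and 0.104, 0.0214 and 0.0543 FPKM with the vector, without overlap.

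Receptors for nucleotides were low. Of 15 P2 receptors, P2RX4 alone reached a mean of 1 FPKM (log2 change 0.00, or -0.06 without vector replicate 2). P2RY11, a receptor for ATP named after its values were seen, was at 0.572, 0.886 and 0.710 FPKM with ARID1B and 0.751, 1.20 and 0.638 FPKM with the vector, whereas P2RY6, the UDP receptor, was at 0.00209 to 0.00422 FPKM with ARID1B and 0.00367 to 0.00685 FPKM with the vector. Of 15 adenosine receptors, nucleoside transporters and release channels, 7 were tested, with a median log2 change of 0.04. ADORA2B, the low-affinity adenosine receptor, was at 2.15, 2.22 and 2.20 FPKM with ARID1B and 1.59, 1.13 and 1.35 FPKM with the vector. The groups of ADORA2B did not overlap, and its log2 change was 0.44 (adjusted p = 0.301 from limma). SLC29A4, a membrane transporter of monoamines and adenosine, was at 3.51, 2.68 and 2.95 FPKM with ARID1B and 4.33, 4.62 and 4.21 FPKM with the vector, which is -0.42 on the log2 scale (adjusted p = 0.324 from limma). SLC29A1, the main equilibrative nucleoside transporter, had -0.11, or 0.12 without vector replicate 2.

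In the secretory pathway, where ENTPD4 to ENTPD7 act, all 14 listed partners were tested and their median log2 change was 0.04. UGGT1, the glucosyltransferase whose UDP is the substrate of ENTPD5, was at 7.68, 6.64 and 7.52 FPKM with ARID1B and 6.09, 4.80 and 5.84 FPKM with the vector. SLC35A3, a Golgi carrier of UDP-N-acetylglucosamine, was at 1.84, 1.90 and 2.37 FPKM with ARID1B and 1.61, 1.16 and 1.33 FPKM with the vector. These were the 2 of 14 partners without overlap, both higher with ARID1B, beside 9.44% of all genes tested, a share too close to that background to set the list apart. They had log2 changes of 0.34 (adjusted p = 0.423 from limma) and 0.36 (adjusted p = 0.390 from limma). The kinase CMPK1, which recycles UMP, had 0.29, the UDP-galactose carrier SLC35A2 had -0.19, the ATP importer of the endoplasmic reticulum SLC35B1 had -0.11 and the adenylate kinase AK1 had -0.01. Without vector replicate 2, SLC35A2 was at -0.05, SLC35B1 at 0.08 and AK1 at 0.15.

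Among 22 genes of dNTP supply and removal, 19 were tested, with a median log2 change of -0.01. RRM1 and RRM2, the subunits of ribonucleotide reductase, had log2 changes of 0.01 and 0.54, RRM2B, the subunit induced by p53, 0.41, and the thymidylate synthase TYMS 0.25. These values hung on vector replicate 2: without it they were 0.36 for RRM1, 1.05 for RRM2, 0.14 for RRM2B and 0.59 for TYMS, 0 of which passed, and the median of the list was 0.14. RRM2 was at 16.7, 8.66 and 15.5 FPKM with ARID1B and 4.75, 19.0 and 7.07 FPKM with the vector, so that both groups spanned a wide range. SAMHD1, which breaks down dNTPs, had 0.11, the deoxyribonucleotidase NT5C -0.34 (adjusted p = 0.498 from limma) and the mitochondrial deoxyguanosine kinase DGUOK -0.36 (adjusted p = 0.522 from limma). Without vector replicate 2, SAMHD1 had -0.08 and NT5C and DGUOK had -0.19 each. NT5C was at 1.70, 1.40 and 1.64 FPKM with ARID1B and 1.80, 2.99 and 2.08 FPKM with the vector, every ARID1B library below every vector library.

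**Figure D5:**
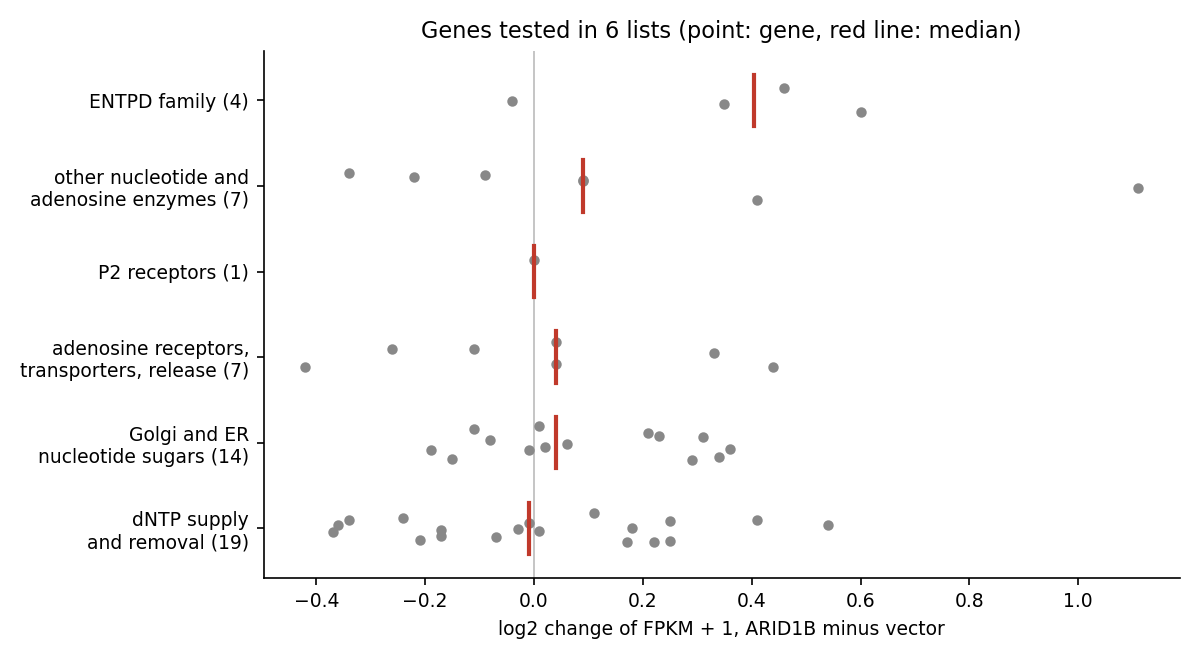
Log2 change of FPKM + 1 (ARID1B minus vector) of each gene tested in 6 lists, with the number tested in brackets; points are genes and red lines the median of each list. The medians are 0.41 for the ENTPD family and between -0.01 and 0.09 for the other 5 lists, and 0 genes passed the threshold in any list.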

How the data were processed

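RNA of IMR90 cells was sequenced in 6 libraries. The authors deposited FPKM values for 57232 genes, whose processing notes list HTSeq 0.5.3p9, TopHat2 2.0.11 and DESeq2 with the build hg19 but give none of them a role. Reads were recovered from the FPKM steps: genes of 1 transcript in GENCODE 29 gave library totals, and each gene's reads then followed from the shortest integer length at which its 6 values were whole numbers within 0.002 reads, which existed for 100.0% of 10416 tested genes. FPKM thus kept gene length and library total but not duplicate status, and reads sharing a divisor would come out too small.

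Genes averaging 1 FPKM or more were compared on log2(FPKM + 1) by limma 3.58.1 under R 4.3.3, using its variance trend. P-values were adjusted by Benjamini-Hochberg and called at 0.05, and the scripts were tested on simulated data. Single values were compared by exact permutation tests (scipy 1.17.1, Python 3.11.15), and figures were drawn with matplotlib 3.10.9. Replicate numbers did not pair the libraries. Members, lists and the rule for named genes (all members, fixed partners, and up to 2 genes a list by smallest p, plus the 5 profiles closest to ENTPD7) were chosen with earlier results of these data known. LOXL2, CUTC, COQ6 and the antisense genes ENTPD1-AS1 and ENTPD3-AS1 were added because they overlap members in GENCODE. Other genes that overlap members there were not examined. Alternatives were a pseudocount of 0.1, no minimum, a minimum of 5 FPKM, median-ratio and quantile scaling, no trend, the replicate number as a block, a GC and length correction (natural splines, 5 degrees of freedom each), voom, and libraries left out; those with a minimum of 0.05 FPKM, levels per longest transcript, and partner genes without vector replicate 2, were added after seeing the data. The files hold hg19 genes, so coordinates come only from RefSeq. Promoter windows on chromosome 8 were left out, so ENTPD4, which lies there, had none. The remaining 7 of the 8 genes had 13 promoter windows.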

Additional observations from a re-analysis of the deposited data

How the results depend on the processing

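ENTPD7, ENTPD4 and ENTPD5 were higher with ARID1B in every alternative that could give a value, and none of them passed the threshold in any. Log2 changes ran from 0.48 to 0.81 for ENTPD7 (22 alternatives), 0.33 to 0.59 for ENTPD4 (23) and 0.18 to 0.56 for ENTPD5 (22); ENTPD7 and ENTPD5 lie under the minimum of 5 FPKM and had no value there. The lowest adjusted p were 0.0511, 0.140 and 0.203 from limma. Leaving out each library in turn gave 0.48 to 0.67 for ENTPD7, 0.34 to 0.55 for ENTPD4, 0.18 to 0.46 for ENTPD5 and -0.22 to 0.21 for ENTPD6. ENTPD6 turned positive under 7 of 23 alternatives: 0.14 with the GC and length correction, 0.14 with it and the replicate block, 0.21 without vector replicate 2, 0.14 without ARID1B replicate 2, and, at a minimum of 0.05 FPKM, 0.23 (log2 with a pseudocount of 0.1) and 0.24 (voom) without vector replicate 2 and 0.16 (voom) without ARID1B replicate 2; the cause was not tested. Without vector replicate 2, the median of the ENTPD family was 0.27, and those of the other lists lay between -0.06 and 0.14. The number of ENTPD genes past the threshold was 0 in every fit, while the count over all genes, 3 higher and 0 lower, became 125 higher and 199 lower without vector replicate 2 (54 and 52, or 182 and 342 with voom, at a minimum of 0.05 FPKM), 5 higher with the GC correction, 1 with voom or median-ratio rescaling, 2 with quantile normalization, and 0 with no minimum, with the replicate block (alone or with GC), without any other single library and without both libraries numbered 3. Same-numbered libraries deviated from their group means with correlations of -0.46, -0.43 and -0.17, so the numbers gave no pairing. Deviations of ARID1B replicate 1 correlated at 0.46 with those of vector replicate 2, and ARID1B replicate 2 at 0.43 with vector replicate 1. The remaining pairs ran from -0.41 to 0.40. Some libraries of unlike number thus shared variation across the groups, and its source was not tested. With the replicate block ENTPD7 stayed at 0.60 (adjusted p = 0.811 from limma). Depth limits ENTPD1, ENTPD2, ENTPD3 and ENTPD8, which rest on 0 to 76 reads a library, and with 3 libraries a group the permutation tests cannot go below p = 0.1.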
